A study of Mus musculus with 24 samples.

Results

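Interferon-stimulated genes (ISGs) are a set of 9 genes of the 36605 counted in the hippocampus of these mice, named by symbol: Ifit1, Ifit3, Isg15, Irf7, Oasl2, Bst2, Usp18, Rtp4 and Ifi27. Every member was found by its Ensembl identifier and all 9 passed the filter on low counts, as did 19742 genes over the 24 mice. RNA was taken from 24 adult mice, with 3 females and 3 males per genotype. In Egr1f mice loxP sites flank Egr1 (floxP), derived from the Egr1_tm1a_A04 strain on a C57BL/6N background, and NesCre+ mice carry B6.Cg-Tg(Nes-Cre)1Kln/J, in which the Nestin promoter expresses Cre recombinase in neural precursors. The groups were therefore Egr1wt NesCre- (complete wild type), Egr1f NesCre- (loxP alleles without Cre), Egr1wt NesCre+ (Cre without loxP alleles) and Egr1f NesCre+ (Egr1cKO, which lose Egr1 in the neural lineage). The labels give neither a treatment nor an age. Mouse numbers of the Egr1wt and the Egr1f mice come from separate ranges, so a difference between them cannot be told apart from one between those series of mice.

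Total counts per mouse ran from 18025168 to 34955004. Levels are CPM, counts scaled to library size with TMM factors, which adjust each library for its composition. Egr1 was lowest in every Egr1f NesCre+ mouse, at 4.86 to 10.2 CPM against 47.7 to 149 CPM in the mice of the other genotypes. The labels name the tissue as hippocampus and the cell type as endocrine. Markers of hippocampal neurons summed to 2619 to 3853 CPM in every mouse and pituitary markers to 1.00 to 3.85 CPM, with Cga and Fshb, which encode hormone subunits, at no more than 3 counts in any mouse.

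ISGs are switched on when interferons bind their receptors and the kinases Jak1 and Tyk2 pass the signal to transcription factors that bind a short response element in ISG promoters. Their products block the spread of viruses or adjust the response itself, and their joint level is used as a sign of an interferon state in brain and other tissues. Ifit1 binds viral RNA and Ifit3 is of the same family. Oasl2 belongs to the oligoadenylate synthetase-like proteins, and Bst2 (tetherin) holds budding virions at the cell surface. Isg15 is a ubiquitin-like protein attached to other proteins, and Usp18 removes it and restrains the interferon receptor. Irf7 is the transcription factor that amplifies production of type I interferons, and Rtp4 is a chaperone of cell surface receptors. Ifi27 is a small membrane protein named for induction by interferon.

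The response element was looked for in the promoters of these genes. RefSeq promoter windows on GRCm38.p6, from 250 bases before to 50 after the start, were at hand for 6 of the 9 members (Ifit1, Ifit3, Isg15, Irf7, Oasl2 and Bst2). Its core, a pair of GAAA blocks spaced by 2 bases (GAAANNGAAA) and read on both strands (TTTCNNTTTC on the other), matched in 4 of these 6 windows, against 3.44% of all 32851 windows. Isg15 has 3 overlapping matches that begin at -78, -72 and -66 from the start, Bst2 has 2 overlapping ones at -130 and -124, Ifit3 has 2 at -156 and -122, and Ifit1 has 2 at -104 and -85. Irf7 and Oasl2 had no match to these letters in this window. The 250 bases before the start of the 4 genes with a match are printed 5′ to 3′ on the gene's own strand, with the matches in capitals. They lie at chr19:34640639-34640888 on the plus strand for Ifit1, at chr19:34583279-34583528 on the plus strand for Ifit3, at chr4:156200819-156201068 on the minus strand for Isg15 and at chr8:71537473-71537722 on the minus strand for Bst2. A match is a description of the letters and was not tested as a binding site.
Ifit1: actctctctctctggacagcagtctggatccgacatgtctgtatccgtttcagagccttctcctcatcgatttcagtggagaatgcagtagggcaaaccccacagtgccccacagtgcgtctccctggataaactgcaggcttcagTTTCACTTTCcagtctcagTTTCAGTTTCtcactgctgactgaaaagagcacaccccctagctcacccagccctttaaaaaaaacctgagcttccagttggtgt
Ifit3: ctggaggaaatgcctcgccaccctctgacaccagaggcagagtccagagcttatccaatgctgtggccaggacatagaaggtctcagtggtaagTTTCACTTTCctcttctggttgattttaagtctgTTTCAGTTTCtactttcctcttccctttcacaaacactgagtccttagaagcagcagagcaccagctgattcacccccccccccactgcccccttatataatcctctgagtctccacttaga
Isg15: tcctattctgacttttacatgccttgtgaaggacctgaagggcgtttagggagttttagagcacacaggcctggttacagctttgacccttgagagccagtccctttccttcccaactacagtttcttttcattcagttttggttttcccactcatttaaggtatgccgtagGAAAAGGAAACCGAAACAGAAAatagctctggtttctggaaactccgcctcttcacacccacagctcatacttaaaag
Bst2: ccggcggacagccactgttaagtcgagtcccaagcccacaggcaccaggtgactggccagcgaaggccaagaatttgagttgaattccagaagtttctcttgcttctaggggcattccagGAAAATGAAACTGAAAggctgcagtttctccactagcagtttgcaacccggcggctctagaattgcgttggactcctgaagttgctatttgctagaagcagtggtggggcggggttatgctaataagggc

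The members lie on 8 chromosomes of GRCm38 in the GENCODE M21 annotation, all as protein-coding genes. Ifit1 (ENSMUSG00000034459, chr19:34640871-34650009) and Ifit3 (ENSMUSG00000074896, chr19:34583531-34588731) lie on the same chromosome. Reads of Ifit3 are uncertain because 31.7% of its 100-base stretches also occur in other genes, here Ifit3b. Isg15 (ENSMUSG00000035692) spans chr4:156199424-156200818, Oasl2 (ENSMUSG00000029561) chr5:114896936-114912234, Usp18 (ENSMUSG00000030107) chr6:121245906-121270917 and Irf7 (ENSMUSG00000025498) chr7:141262706-141266481. Bst2 (ENSMUSG00000046718) spans chr8:71534255-71537456, Ifi27 (ENSMUSG00000064215) chr12:103434211-103440239 and Rtp4 (ENSMUSG00000033355) chr16:23520291-23614222. Rtp4 shares 13.9% of its exonic bases with Gm45338 on the same strand. Irf7 overlaps Phrf1 by 45 exonic bases on the opposite strand, which these non-stranded libraries cannot separate.

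Per kilobase of exon, Ifi27 had by far the highest level of the 9, with a median over 24 mice of 17.6 CPM per kb. Bst2 followed at 2.51 CPM per kb, then Ifit3 at 1.85 and Isg15 at 1.69, and the other members lay between 0.191 (Usp18) and 0.630 (Rtp4). Counts were therefore small for most members. Ifi27 had a median count of 573, Ifit3 of 75.5, and Usp18 of 13 with a range of 4 to 28. Across mice the coefficient of variation of CPM was 14.6% for Ifi27 and 52.6% for Irf7, where counting alone gives 4.16% and 18.8%. For Usp18 it was 44.8% against 29.9% from counting. Since whole tissue was measured, fewer cells of a type and less RNA per cell cannot be told apart.

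**Figure D1:**
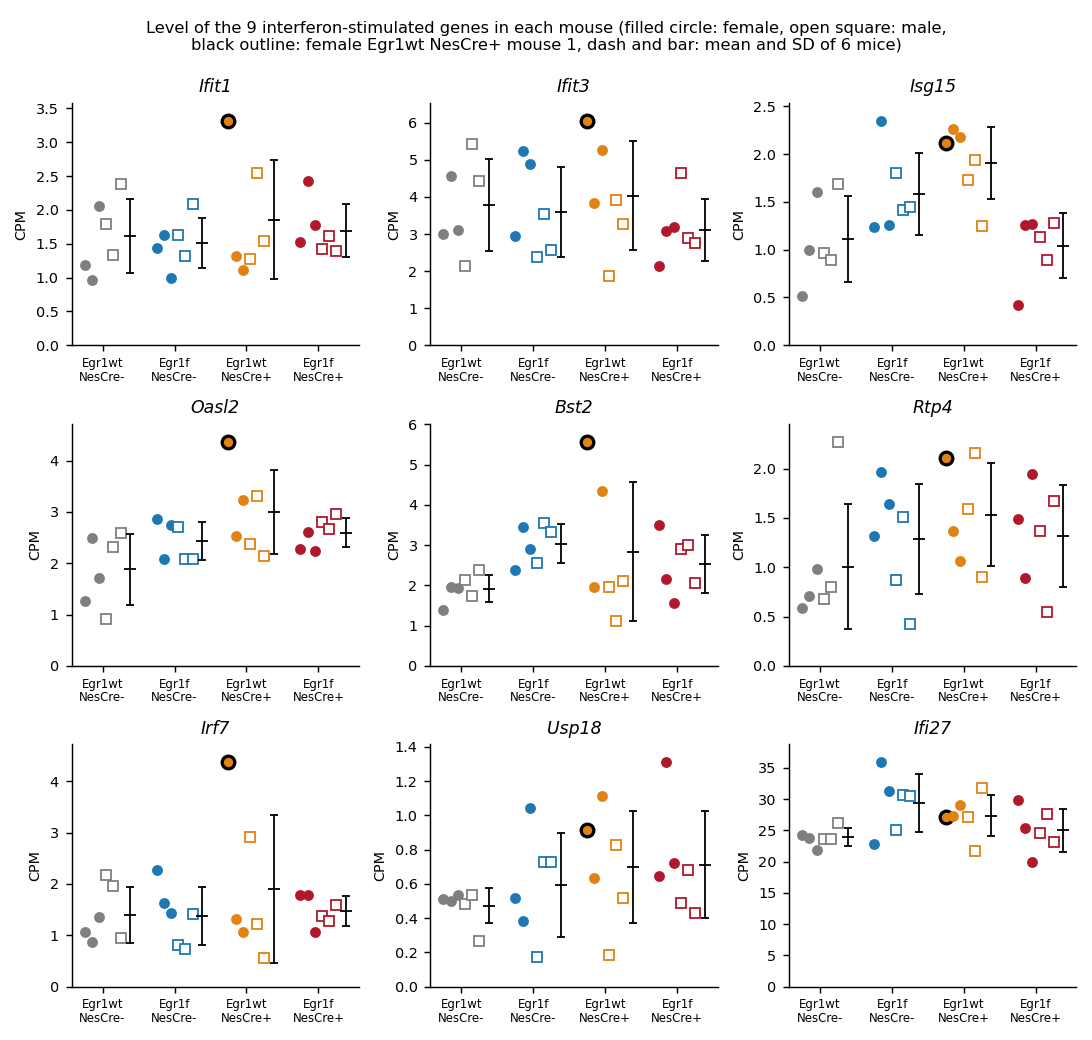
CPM of each member (y axis, from 0) in each of the 24 mice by genotype (x axis), with females as filled circles, males as open squares and mean and SD of 6 mice beside them. The outlined female Egr1wt NesCre+ mouse 1 is the highest of 24 for Ifit1, Ifit3, Oasl2, Bst2 and Irf7, and the groups overlap for every member apart from Bst2 between Egr1f NesCre- and Egr1wt NesCre-.

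No ISG member was called in Egr1cKO mice against either control genotype that shares an allele with them. Calls required edgeR's quasi-likelihood test with an adjusted p not above 0.05 (Benjamini-Hochberg over all genes tested) and a change of 1.2 times or more. Against Egr1f NesCre- mice, 0 of 9 members were called, where 0.0232% of the 17265 genes tested were. At an unadjusted p below 0.05 there were 0 of 9 members against 16.2% of all genes, and DESeq2 also called 0, with no adjusted p for 3 members. The log2FC was above 0 for 5 members (48.6% of all genes) and below 0 for 4, with a median of 0.08 and a range from -0.61 (Isg15) to 0.26 (Usp18). The median over all genes tested was -0.01.

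Against Egr1wt NesCre+ mice, 0 of 9 members were called, beside 0.00585% of 17080 genes, and DESeq2 called 0 as well. Only Isg15 had an unadjusted p below 0.05 (1 of 9, against 12.3% of all genes). The log2FC was above 0 for 1 member and below 0 for 8, where 46.7% of all genes were above 0, with a median of -0.20 beside -0.01 over all genes. Female Egr1wt NesCre+ mouse 1, a control here and described below, was picked for its high values of these same members. Leaving it out therefore shifts the members as a set by its choice, and adds no separate evidence on the direction. Without it, 4 members were above 0 and 5 below, with a median of -0.06. Of the 6 choroid plexus markers tested, 5 were below 0 in the comparison of all 12 mice, with a median of -0.61 and 0 at an unadjusted p below 0.05. Red blood cell markers were below 0 for 4 of 5. Endothelial markers were above 0 for 9 of 10 (median 0.24, 3 at an unadjusted p below 0.05). Microglial markers were above 0 for 10 of 12 (median 0.11, 2 at an unadjusted p below 0.05). Meningeal markers were above 0 for 6 of 8 (median 0.31, 1 at an unadjusted p below 0.05). The part of these markers in the ISG values was not tested.

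The antiviral effectors Ifit1, Ifit3 and Oasl2 lay in overlapping ranges in Egr1cKO mice and in the controls with loxP alleles. Ifit1 was 1.40, 1.57 and 2.43 CPM (lowest, median and highest) in Egr1f NesCre+ mice and 0.986, 1.53 and 2.09 CPM in Egr1f NesCre- mice, and the groups overlapped over most of their range. Its log2FC was 0.15 with a 95% interval from -0.35 to 0.65 (adjusted p = 0.771). Ifit3 had 2.13, 2.98 and 4.66 CPM in Egr1cKO and 2.38, 3.25 and 5.25 CPM in Egr1f NesCre- mice. Oasl2 had 2.25, 2.64 and 2.95 CPM in Egr1cKO and 2.09, 2.40 and 2.87 CPM in Egr1f NesCre- mice. These intervals leave room for changes of either sign, so the data do not show that the levels were equal.

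Isg15 had the log2FC farthest from 0 of the 9 members in both comparisons. It was 0.419, 1.19 and 1.28 CPM in Egr1f NesCre+ mice. In Egr1wt NesCre+ mice it was 1.24, 2.02 and 2.27 CPM, so that only the lowest of these controls fell within the Egr1cKO range. Egr1f NesCre- mice had 1.24, 1.43 and 2.35 CPM and Egr1wt NesCre- mice 0.513, 0.984 and 1.69 CPM. By median, the wild type and Egr1cKO mice were the lower groups, and the mice with Cre alone or loxP alleles alone the higher ones. Isg15 had a log2FC of -0.86 in Egr1cKO against Egr1wt NesCre+ mice (SE 0.29, unadjusted p = 0.00869, adjusted p = 0.354), and of -0.61 against Egr1f NesCre- mice (SE 0.29, unadjusted p = 0.0525, adjusted p = 0.313). Neither passed the adjustment. Its partner Usp18, which strips Isg15 from proteins, had a log2FC of 0.04 and 0.26 in these comparisons, at adjusted p of 0.977 and 0.768.

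Cre without loxP alleles was examined by setting Egr1wt NesCre+ against Egr1wt NesCre- mice. All 9 members had a log2FC above 0, where 53.7% of all genes did, but 0 of 9 were called, as were 0% of the 17167 genes tested. DESeq2 called 0 members too. The median over members was 0.49 and the range 0.06 (Ifit3) to 0.78 (Isg15), against 0.01 over all genes. Isg15, Oasl2 and Ifi27 had an unadjusted p below 0.05, which is 3 of 9 members beside 6.05% of all genes. Oasl2 was 0.921, 2.02 and 2.59 CPM (lowest, median and highest) in wild type and 2.15, 2.88 and 4.37 CPM in Egr1wt NesCre+ mice, with overlap (log2FC 0.66, SE 0.27, adjusted p = 0.754).

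Markers of other cells also differed in this comparison. All 6 choroid plexus markers tested were above 0, with a median log2FC of 1.92 and 4 at an unadjusted p below 0.05, and 11 of 12 markers of hippocampal neurons were below 0, with a median of -0.07. None of these was called, and their part in the ISG values was not tested. Summed choroid plexus markers were 29.1, 35.5 and 163 CPM (lowest, median and highest) in Egr1wt NesCre+ and 27.1, 30.9 and 39.5 CPM in wild type mice, and the 163 CPM belonged to female Egr1wt NesCre+ mouse 1.

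The same comparison was refitted without female Egr1wt NesCre+ mouse 1. This mouse was picked for its high members, so a lower median follows from the choice. The refit gave 6 members above 0 and 3 below, with a median of 0.25. Only Isg15 then had an unadjusted p below 0.05 (log2FC 0.75, adjusted p = 0.665, within a range of 0.243 to 0.944 over all its alternatives). Irf7, the transcription factor, changed most by that omission, from a log2FC of 0.46 to -0.03, and Ifit1 went from 0.21 to -0.11. The mean of Irf7 in Egr1wt NesCre+ mice was 1.91 ± 1.44 CPM (SD, n = 6) with that mouse and 1.41 ± 0.887 CPM (SD, n = 5) without it.

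Mice with loxP alleles alone were set against wild type to see whether the alleles themselves go with another level. Bst2 was 2.39, 3.11 and 3.55 CPM in Egr1f NesCre- and 1.38, 1.94 and 2.38 CPM in Egr1wt NesCre- mice. Every mouse with loxP alleles lay above every wild type mouse, by a narrow margin. Bst2 was the 1 member of 9 whose groups did not overlap in this comparison, where 0.282% of all genes had none. Its log2FC was 0.66 (SE 0.18, 95% interval 0.27 to 1.05), with an unadjusted p of 0.00227 and an adjusted p of 0.515. Ifi27 was 22.8, 30.6 and 35.9 CPM in Egr1f NesCre- and 21.9, 23.8 and 26.2 CPM in wild type mice, and the ranges overlapped. It had a log2FC of 0.30 (SE 0.10, unadjusted p = 0.00698, adjusted p = 0.515).

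These 2 of 9 members had an unadjusted p below 0.05, beside 9.68% of all genes, and 0 of 9 members and 0% of 17393 genes were called, with 0 members also by DESeq2. The log2FC was above 0 for 6 of 9 members, beside 50.8% of all genes. Among the members beside Bst2 and Ifi27, Isg15 had a log2FC of 0.53, Oasl2 of 0.37, Rtp4 of 0.35 and Usp18 of 0.29, and Ifit1, Ifit3 and Irf7 lay between -0.10 and -0.04. Bst2 in the other genotypes was 1.11, 2.03 and 5.57 CPM in Egr1wt NesCre+ and 1.57, 2.52 and 3.51 CPM in Egr1cKO mice. The Egr1cKO mice overlapped both Cre-negative groups. In Egr1f NesCre- against wild type, all 6 choroid plexus markers tested were above 0 (median log2FC 1.48, 4 at an unadjusted p below 0.05) and so were 9 of 10 endothelial markers (median 0.20, 2 at an unadjusted p below 0.05). None was called, and their part in the Bst2 and Ifi27 values was not tested.

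**Figure D2:**
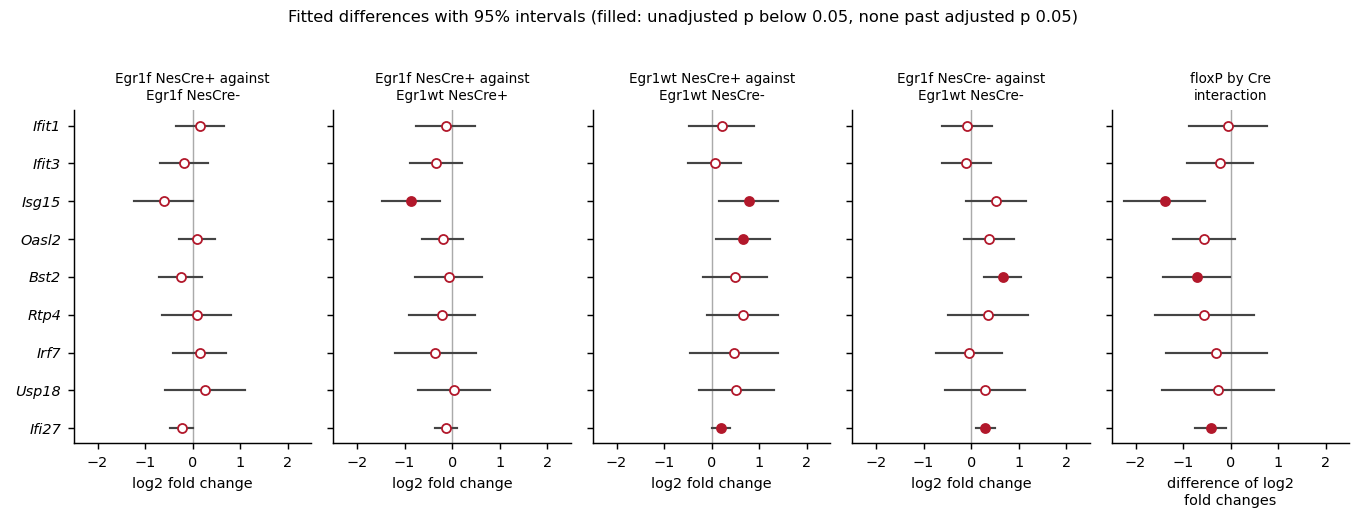
Fitted log2 fold changes (x axis) of the 9 members (y axis) with 95% intervals in 4 comparisons of genotypes, and the interaction of floxP and Cre as a difference of log2 fold changes. Filled points have an unadjusted p below 0.05 and none passed the adjustment, with Isg15 at -1.38 in the interaction the farthest from 0.

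The interaction asks whether the difference between mice with and without Cre is itself different in mice with loxP alleles, and it uses all 24 mice. It was below 0 for all 9 members, with a median of -0.42 beside -0.03 over all genes, and 46.1% of all genes were above 0. The calls were 0 of 9, where 0.00507% of 19742 genes were called. DESeq2 called 0 too, but gave no adjusted p for 8 members. Isg15 gave -1.38 on the log2 scale (SE 0.41, 95% interval -2.24 to -0.53, unadjusted p = 0.00273, adjusted p = 0.189). Ifi27 gave -0.42 (SE 0.15, adjusted p = 0.192) and Bst2 -0.71 (SE 0.34, adjusted p = 0.277). These were the 3 of 9 members at an unadjusted p below 0.05, beside 17.8% of all genes. The interaction is built from the same mice as the pairwise comparisons, so it repeats their values and adds no separate evidence. All 8 choroid plexus markers were below 0 as well, with a median of -2.0 and 3 at an unadjusted p below 0.05, 0 were called, and their part in the ISG values was not tested. Without female Egr1wt NesCre+ mouse 1, 7 members were below 0 and 2 above, and Isg15 was at -1.39 (adjusted p = 0.153, within 0.0660 to 0.343 over its alternatives). That mouse was picked by these same members, so the refit is only a description.

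With Egr1cKO mice set against the mean of the other 3 genotypes, 0 of 9 members were called, where 0.0355% of 19742 genes were. The median log2FC was 0.03, with 5 members above 0 and 4 below (47% of all genes were above). Isg15 had a log2FC of -0.52 (SE 0.25, unadjusted p = 0.0449, adjusted p = 0.334) and was the only member at an unadjusted p below 0.05, beside 14.5% of all genes, and DESeq2 called 0 members. In this contrast 10 of 10 endothelial markers (median 0.25) and 11 of 12 microglial markers (median 0.16) were above 0. So were 6 of 8 meningeal markers (median 0.54, 3 at an unadjusted p below 0.05). Red blood cell markers were below 0 for 4 of 5. Of the astrocyte markers 1 was called, and the part of all these markers was not tested. The Egr1cKO group did not have the highest mean for any member except Usp18, at 0.712 ± 0.314 CPM (SD, n = 6), which was less than its SD above the 0.471 ± 0.103 CPM (SD, n = 6) of wild type mice.

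Placed in order of group means, most members did not separate the genotypes. For Ifit1, Ifit3, Irf7, Usp18 and Rtp4, the highest and the lowest group differed by less than the larger of their SDs. Isg15 ran from Egr1wt NesCre+ (1.91 ± 0.378 CPM, SD, n = 6) over Egr1f NesCre- (1.58 ± 0.425) and Egr1wt NesCre- (1.11 ± 0.450) to Egr1cKO (1.04 ± 0.340). Of its neighbours, only the middle pair differed by more than the larger SD, as did the ends. For Oasl2, Bst2 and Ifi27 the wild type was lowest, and only the ends of the order differed by more than the larger SD, with Egr1wt NesCre+ highest for Oasl2 and Egr1f NesCre- highest for Bst2 and Ifi27.

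No difference between the sexes passed the test. Averaged over genotypes, 8 of 9 members had a log2FC of females against males above 0, beside 49.2% of all genes, with a median of 0.09, and 0 of 9 were called, where 0.0658% of 19742 genes were. None had an unadjusted p below 0.05, beside 5.93% of all genes, and DESeq2 called 0. The largest was Usp18 at 0.52 (SE 0.29, adjusted p = 0.879). Without female Egr1wt NesCre+ mouse 1, which was picked for its high members, 6 members were above 0 and 3 below. The sex difference in Egr1cKO mice was compared with that of the other genotypes, and again 0 of 9 members were called, beside 0.00507% of 19742 genes, with 0 at an unadjusted p below 0.05 (6.09% of all genes) and 0 by DESeq2. Here 3 members were above 0, where 49% of all genes were. Ifit3 showed the largest value, with 2.80 ± 0.579 CPM (SD, n = 3) in Egr1cKO females and 3.43 ± 1.06 CPM in Egr1cKO males, and with 5.05 ± 1.11 CPM in Egr1wt NesCre+ females and 3.02 ± 1.05 CPM in the males of that genotype. Egr1f NesCre- females had 4.36 ± 1.23 CPM and males 2.83 ± 0.631 CPM, whereas in wild type mice the females were the lower, as in Egr1cKO, at 3.56 ± 0.881 CPM against 4.0 ± 1.7 CPM in males. Its contrast was -0.69 on the log2 scale (SE 0.39, adjusted p = 0.868). All 8 choroid plexus markers were below 0 in both sex contrasts, with medians of -0.50 and -1.44, 0 called and their part not tested.

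One animal stood out from the other 23. A mouse was described as raised where at least 5 of the 9 members were at least 1.5 times their median over 24 mice, and 1 mouse met this, female Egr1wt NesCre+ mouse 1. In it 8 of 9 members were at least 1.5 times their median and all 9 were above it. Irf7 was at 4.37 CPM, where the other 23 mice ran from 0.558 to 2.91 CPM. Bst2 was at 5.57 CPM against 1.11 to 4.35 CPM in the others, and Ifit1 at 3.31 CPM against 0.957 to 2.54 CPM. Together with Ifit3 (6.05 CPM) and Oasl2 (4.37 CPM), 5 members were at their highest of 24 mice in this animal. The share of all genes at their highest in it was not counted. Isg15 was at 2.11 CPM and Usp18 at 0.912 CPM, both at rank 4 of 24, and Rtp4 at 2.11 CPM, at rank 3. Ifi27, the most abundant member, was at 27.1 CPM and only 1.05 times its median.

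The median deviation of the 9 members in this mouse was 0.61 on the log2(CPM + 1) scale, and in the other 23 it ran from -0.22 to 0.34. At most 4 members were at 1.5 times their median in any of those mice. Those 4 were reached in female Egr1wt NesCre+ mouse 3 and in male Egr1wt NesCre+ mouse 2. The highest of the others by median deviation was female Egr1f NesCre- mouse 2, with 3 members at 1.5 times the median and the highest Isg15 (2.35 CPM) and Ifi27 (35.9 CPM) of 24. In Egr1cKO mice, 4 of 6 had no member at 1.5 times its median, female mouse 1 had 1 and female mouse 2 had 2. The number in the raised mouse has to be read beside its other genes, since 15.4% of the 19742 genes were at least 1.5 times their median in it, against 4.35% to 10.9% in the others. These are values of single mice and no test was made on them.

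**Figure D3:**
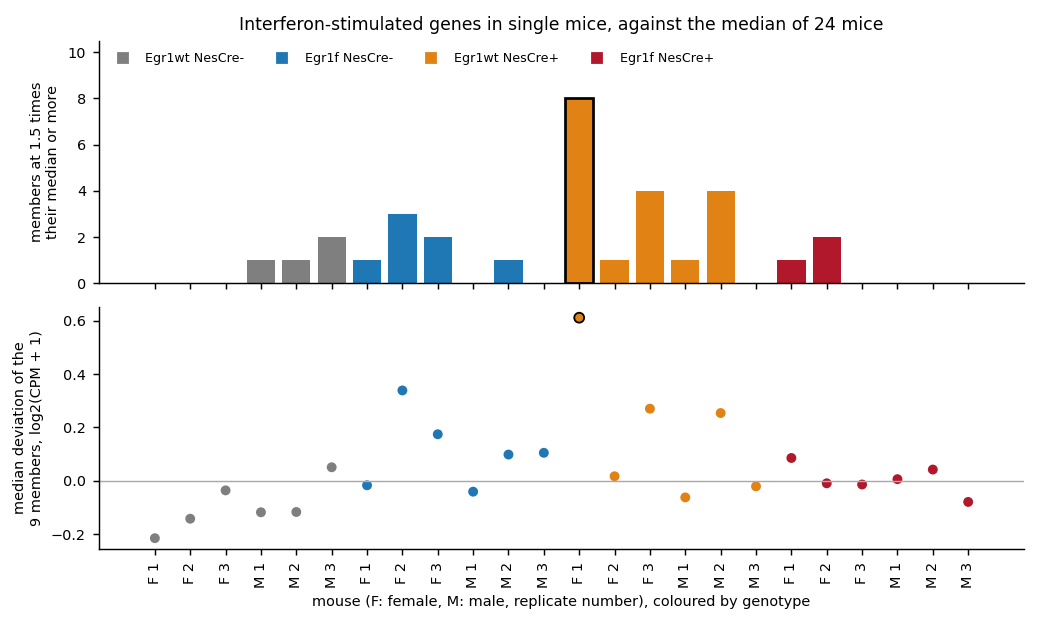
Number of the 9 members at 1.5 times their median or more (upper panel) and median deviation of the members on the log2(CPM + 1) scale (lower panel) in each of 24 mice (x axis), coloured by genotype. The outlined female Egr1wt NesCre+ mouse 1 reaches 8 members and 0.61, and the other mice stay at 4 members and 0.34 or less.

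Across mice the members were weakly correlated. Over the 36 pairs of members, the median Pearson r across 24 mice was 0.23, from -0.16 to 0.63 (Bst2 with Ifi27), and 33 pairs were above 0. Without the raised mouse, which was picked by these same members, the median was 0.08 and 22 pairs were above 0. Low counts and the shared libraries bear on these values, which are given as a description. The 10 genes whose log2(CPM + 1) followed the mean of the members most closely had r from 0.706 to 0.779 across 24 mice, led by Arhgef19, Efna1 and Gm10863. H2-K1, a heavy chain of MHC class I, was the only one of them in the interferon lists (r = 0.710). Cbs alone was among the top 10 also without the raised mouse, at r = 0.702.

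The rest of the pathway was followed in fixed lists of interferon genes, in which no gene was called in any of the 8 comparisons. Of 43 other ISGs, 36 passed the filter over 24 mice. In Egr1cKO against Egr1f NesCre- mice, 22 of 35 tested were above 0 and 13 below (48.6% of all genes were above), with a median log2FC of 0.14 beside -0.01 over all genes. Of the 35, 8 had an unadjusted p below 0.05, beside 16.2% of all genes, and 0 were called by edgeR. Endothelial and microglial markers were above 0 for 9 of 10 and 9 of 12 genes in the same comparison (medians 0.12 and 0.15), with 0 called. Meningeal markers were above 0 for 7 of 8 (median 0.66, 4 at an unadjusted p below 0.05, 0 called). Astrocyte markers were above 0 for 6 of 8 (median 0.17), with 1 called. Choroid plexus and red blood cell markers were above 0 for only 2 of 6 and 2 of 5. The part of these markers was not tested. Ifitm1, which hinders virus entry, had the largest value (log2FC 1.05, SE 0.25, adjusted p = 0.242), and Ifi27l2a, a relative of Ifi27, had the largest below 0 (log2FC -0.96, SE 0.62, adjusted p = 0.440). Egr1wt NesCre+ against wild type gave 18 above 0 and 14 below for these genes, with a median of 0.06 beside 0.49 for the 9 members.

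Upstream of the ISGs, the interferon receptor genes Ifnar1, Ifnar2, Ifngr1, Ifngr2 and Ifnlr1 passed the filter. The ligand genes listed were not found by symbol among the genes counted, so they were not analysed here. Ifnar1, a chain of the type I receptor, had a log2FC of -0.24 in Egr1f NesCre- against wild type (SE 0.07, unadjusted p = 0.00336, adjusted p = 0.515), and of 0.14 in Egr1cKO against Egr1f NesCre- mice (adjusted p = 0.354). Of 14 genes of signalling below the receptors, 3 had an unadjusted p below 0.05 in Egr1cKO against Egr1f NesCre- mice, a share near the 16.2% of all genes. Among them Irf3, which starts interferon production, had a log2FC of -0.36 (SE 0.13, adjusted p = 0.255) and Tyk2 one of -0.26 (SE 0.10, adjusted p = 0.261). Jak1, named after its value was seen, was the other, at 0.19 (SE 0.09, adjusted p = 0.306). Sensors of nucleic acids had 11 above 0 and 8 below of 19 in that comparison, with Tlr9 at 0.43, Cgas at 0.41 and Tlr3 at 0.39 (adjusted p = 0.388, 0.284 and 0.253). The guanylate-binding, immunity-related GTPase and MHC class I genes, which respond to interferon gamma, had 11 above 0 and 13 below in that comparison, with a median of -0.03. In Egr1f NesCre- against wild type, 17 of 23 were above 0, beside 50.8% of all genes, with a median of 0.20. Psmb8, an immunoproteasome subunit, was at 0.72 there (SE 0.32, adjusted p = 0.515). All 6 choroid plexus markers and 9 of 10 endothelial markers were also above 0 there, and their part was not tested.

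The raised mouse was high in some other ISGs. Of the 36, 8 were at least 1.5 times their median, beside the 15.4% of all genes in this mouse, and 10 were at their highest of 24 mice. The other mice had at most 7 and 5. The share of all genes at their highest in this mouse was not counted. Counts of highest genes are therefore not read as particular to any of these lists. Herc6, which attaches Isg15 to proteins in mice, was at 8.64 CPM in it and between 1.53 and 4.90 CPM in the others. Lgals3bp was at 19.6 CPM against 8.80 to 16.0 CPM, and Xaf1 at 6.05 CPM against 2.14 to 4.54 CPM. Others were not high, with Slfn2 at 0.672 CPM, the lowest of 24, Ly6e and Eif2ak2 at rank 18 and Dtx3l at rank 17. These genes were chosen as examples after their values were seen. The MHC class I genes H2-K1 (31.8 CPM), H2-D1 (36.3 CPM) and B2m (76.7 CPM) were also highest in this mouse. The list they belong to summed to 251 CPM, against 173 to 227 CPM in the others, and these abundant genes weigh heavily in that sum. Of its 24 genes, 5 were at 1.5 times their median and 5 at their highest of 24 mice. The other mice had at most 6 and 4. Ciita was at rank 13 and Psmb8 at rank 21. Of 20 sensors of nucleic acids, 4 were at 1.5 times their median, beside 15.4% of all genes in this mouse, and 3 at their highest of 24. The other mice had at most 3 and 2. Among them Zbp1 was at 0.912 CPM against 0 to 0.555 CPM in the others, and Tlr7 was at rank 23. At 1.5 times their median were 0 of 5 receptor genes and 1 of 14 genes of signalling below the receptors (Socs3, a feedback inhibitor, at 3.60 CPM). With lists this short, no difference between the lists is read from these counts.

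Markers of some other cells were at an extreme in the same mouse. All 8 choroid plexus markers were at their highest of 24, and their sum was 163 CPM, against 22.5 to 115 CPM in the others. Endothelial markers summed to 272 CPM against 123 to 269 CPM, and markers of hippocampal neurons to 2619 CPM against 2845 to 3853 CPM, the lowest of 24. Microglial markers summed to 436 CPM, the third of 24, with 0 of 12 at 1.5 times their median. Leukocyte markers summed to 6.29 CPM against 2.37 to 7.73 CPM, with Ms4a1 and Ly6c2 at no more than 3 counts in any mouse. Red blood cell markers summed to 79.5 CPM against 29.2 to 95.5 CPM, meningeal ones to 67.1 CPM against 20.8 to 112 CPM, and astrocyte ones to 4817 CPM against 3785 to 5699 CPM. The part of these markers in the ISG levels was not tested. The next mice by choroid plexus markers were male Egr1cKO mouse 2 (115 CPM), male Egr1f NesCre- mouse 3 (91.7 CPM) and male Egr1f NesCre- mouse 2 (78.7 CPM). In this order, 0, 0 and 1 of the 9 members were at 1.5 times their median, and 5, 6 and 6 were above it. Bst2 was at ranks 7, 6 and 3 of 24 in them, and Ifi27 at ranks 8, 5 and 4. Whether the members go with choroid plexus markers over mice was not tested.

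**Figure D4:**
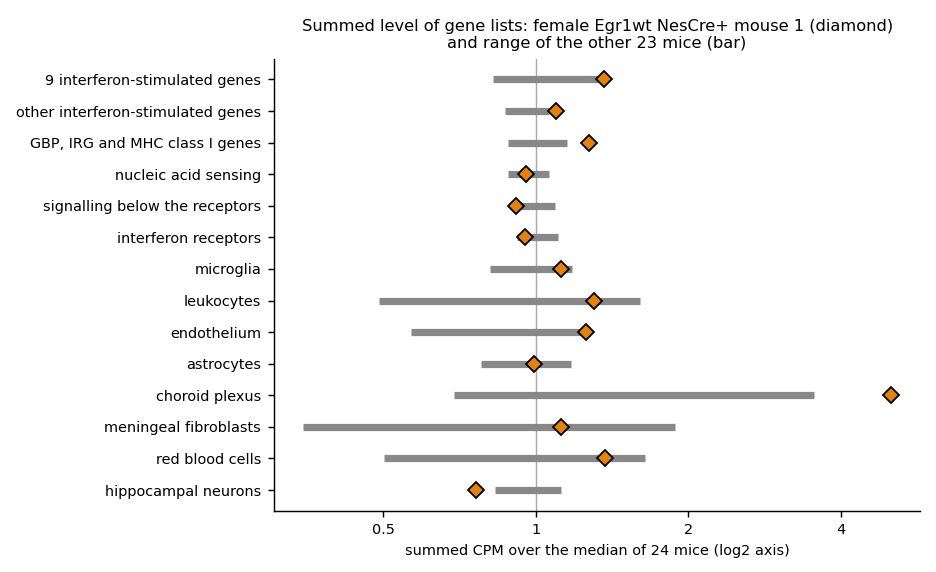
Summed CPM of each gene list over its median of 24 mice (x axis, log2 scale) in female Egr1wt NesCre+ mouse 1 (diamonds) and the range over the other 23 mice (bars). The mouse lies above all others for the 9 members, the other ISGs, the MHC class I list, endothelium and choroid plexus, and below all others for hippocampal neurons.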

How the data were processed

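RNA was extracted with the RNeasy kit and non-stranded libraries were sequenced in paired-end mode. The submitters' processing notes name Trim Galore 3.8.2 and STAR 2.7.9 with GRCm38, and the annotation used for counting is not given in the sources used here. The authors deposited whole-number counts per gene and mouse for 36605 genes, without normalization, and all 24 columns were used. GENCODE M21 gave a symbol for 36493 genes. Sex, genotype and replicate came from the labels, and each label was taken as 1 animal. No mice of a group had counts within sampling noise of each other.

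Differences were tested with edgeR 4.0.16 in R 4.3.3 (TMM, filterByExpr with a minimum count of 10, quasi-likelihood F test, Benjamini-Hochberg adjustment over all genes). Pairwise comparisons used the 12 mice they concern with sex as a term. The other contrasts used 8 group means of sex and genotype. An SE is the log2FC over the square root of F, and intervals use the t distribution. DESeq2 1.42.0, other scaling, no filter, no FC minimum, no sex term, a shared fit, a replicate block and leaving out each mouse were alternatives. Scripts were tested on simulated data.

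The members, gene lists and rules were chosen with earlier results of these data known. The naming rule covers every member, the 3 largest values per list and comparison, the 10 genes most like the members, and mice with at least 5 members at 1.5 times their median. Counts of 4 to 28 limit the precision of Usp18.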

Additional observations from a re-analysis of the deposited data

Results flagged for a closer look

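In a group of 6 mice, a highest or lowest value was singled out where its gap to the next mouse was more than 0.625 of the group's range. This held in 4 of 40 groups looked at, and chance gives about 1 in 20, which is 2 here. Female Egr1f NesCre+ mouse 2 had 2.43 CPM of Ifit1, where the other Egr1cKO mice ran from 1.40 to 1.78 CPM. The same mouse had 1.31 CPM of Usp18, the highest of 24, against 0.427 to 0.721 CPM in its group. Male Egr1wt NesCre- mouse 3 had 0.264 CPM of Usp18, against 0.485 to 0.535 CPM in the other wild type mice. It also had 2.27 CPM of Rtp4, the highest of 24, where the others of its group ran from 0.592 to 0.984 CPM.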

How the results depend on the processing

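None of the 9 members was called in any of the 8 comparisons under any alternative run, with 1728 values over the 72 pairs of member and comparison. The lowest adjusted p was 0.0548, for Ifi27 in the interaction without male Egr1wt NesCre+ mouse 2. DESeq2 gave no adjusted p for 8 members in the interaction, 3 in Egr1cKO against Egr1f NesCre- and 1 in each of the contrast with all other genotypes and the sex contrast. The sign differed from the reported one in 95 values, over 28 of the 72 pairs. With the replicate number as a block 0 members were called in each comparison. Replicate numbers did not pair the mice, since deviations of same-numbered mice had a mean correlation of -0.00307 over 84 pairs. Counts over all genes moved far more. In Egr1cKO against Egr1f NesCre- mice, edgeR called 4 genes, DESeq2 61, edgeR without a filter 808 and edgeR with the block 7, and leaving out each mouse gave 2 to 304, the highest without male Egr1f NesCre- mouse 1. Against Egr1wt NesCre+ mice these were 1, 30, 529 and 1, with 3 in the shared fit and 1 to 794 by leaving out each mouse. Egr1wt NesCre+ against wild type gave 0, 16, 156 and 0, and 0 to 229. The interaction gave 1, 41, 1080 and 1, and 1 to 1269, and Egr1cKO against all others 7, 48, 631 and 8, and 2 to 68. The highest of these last 4 ranges were each reached without male Egr1wt NesCre+ mouse 2. Egr1f NesCre- against wild type gave 0, 2, 163 and 0, and 0 to 1, the sexes 13, 15, 80 and 11, and 11 to 14, and the sex contrast 1, 5, 146 and 0, and 0 to 1. With a pseudocount of 0.1 the raised mouse had a median deviation of 0.77 and the others -0.35 to 0.47, and at a fold of 2 it had 3 members and the others at most 1. Low counts limit all members except Ifi27, and a difference that misses the threshold is not shown to be absent.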
